A study of Mus musculus with 16 samples.

Results

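The genes described here were 133 of the 14829 genes counted in mouse hematopoietic stem cells, chosen by the size of their rise after dmPGE2 on the first of the dates in the sample labels. In each of the 4 mice of that date, log2(CPM + 0.5) was higher after dmPGE2 than after vehicle, where CPM is the usual count scaled to the total of its library. The mean of these 4 differences was at least 0.8 and the mean CPM after dmPGE2 at least 3. These conditions held for 185 genes. Of these, 52 were set aside by name, most of them from well-known early-response families (such as Fos, Jun, Egr, Nr4a, Dusp and Klf), which left the 133. The names set aside by the letters Gm were 3 predicted genes and Gmppb, an enzyme of GDP-mannose synthesis. Just inside the threshold stood Tob2 (0.82), Rasgef1b (0.81) and Rnd1 (0.81), and just outside it stood Marcksl1 (0.80), Ppan (0.79) and Etv3 (0.79). The vehicle and dmPGE2 libraries of the first date selected the members. Their values for that date are therefore a description without a test, and the dmPGE2 test was made in the 4 mice of the second date.

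Hematopoietic stem cells are the cells of the bone marrow from which all blood cells arise. The labels give 4 groups of 4 libraries: young mice with vehicle, young mice with dmPGE2, old mice with vehicle and old mice with dmPGE2. Bone marrow came from 8 mice, 4 of each age, and every mouse gave cells to both arms. These were held for 1 hour at 37 °C with vehicle or with dmPGE2, a dimethyl form of prostaglandin E2 that is broken down slowly, and sorted at once. Date 1, the earlier of the labelled dates, holds the young mice 477 and 478 and the old mice 479 and 480, and date 2, the next day, holds the young mice 483 and 484 and the old mice 485 and 486. Values in the order of the mice below follow these numbers, young before old. No genotype, strain, sex, age in months or dose is given in the sources used here, and what was done on the labelled dates is not given either.

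Prostaglandin E2 acts on stem cells through G-protein-coupled receptors, and some of these raise cyclic AMP. Cyclic AMP activates protein kinase A, which phosphorylates CREB, a transcription factor that binds the cyclic AMP response element of promoters. Genes that respond within an hour usually need no new protein, and besides the best-known early genes they include secreted factors, receptors, regulators of Notch, BMP and TGF-beta signalling, clock genes and proteins that shorten the life of other mRNAs. Many early genes also respond to handling, warming and dissociation of cells.

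Library totals ranged from 12960704 to 19226963 counts. All 20 markers of stem cell identity were detected, with summed levels of 6368 to 8071 CPM on date 1 and 4344 to 6303 CPM on date 2. For each age the sums of date 2 lay below those of date 1. Several groups of markers of other blood cells differed between the dates. Of the 13 neutrophil markers, 12 were in the table. Their summed level was 4.52 to 9.93 CPM on date 1 and 775 to 1614 CPM on date 2. Ngp, the most abundant of them on date 2, had a mean of 277 CPM there against 0.744 CPM on date 1, and S100a8 one of 151 against 1.21 CPM. No neutrophil marker was at 0 in all libraries of a date. Summed markers of myeloid progenitors (294 to 505 CPM on date 1 and 1709 to 3815 CPM on date 2), monocytes (593 to 877 and 1104 to 2054 CPM) and T and NK cells (81.9 to 201 and 275 to 536 CPM) were higher on date 2 too. B cell sums had similar ranges (334 to 1212 and 366 to 1145 CPM), with Cd74 averaging 588 and 587 CPM and Cd79a 0.156 and 11.8 CPM. Sums of megakaryocyte and platelet markers (2134 to 3941 and 1536 to 3645 CPM) and endothelial markers (1557 to 2469 and 1027 to 2020 CPM) reached lower on date 2. On date 2 the neutrophil sum was 1043 to 1614 CPM in young and 775 to 872 CPM in old libraries, and the sum of the 12 erythroid markers in the table was 3621 to 4105 and 2082 to 2310 CPM. In RNA from many cells, fewer cells of a type and less RNA per cell cannot be told apart.

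The promoters of the members were searched for the full cyclic AMP response element, TGACGTCA, which reads the same on both strands. Promoter windows were the 250 bases before a RefSeq transcript start on build GRCm38.p6, and 96 of the 133 members had one. The element was present for 12 of these 96 genes (12.5%), for 5 of 39 genes of the families set aside (12.8%), for 2.94% of the 11185 counted genes with a window and for 1.77% of all 27025 genes of the RefSeq table. The shorter form TGACG, which is part of the full element and was read on both strands, occurred for 47 of the 96 members (49%) and 29.4% of the counted genes. The AP-1 element TGANTCA, also read on both strands, occurred for 9 of 96 (9.38%) and 5.76%. The E-box CACGTG occurred for 17 of 96 (17.7%) and 9.69%. These shares describe the letters of the windows, they carry no test, and a match is not a measured binding site. The 12 members with the full element were Zdbf2, Chpf, Arl5b, Slc25a25, Trp53inp2, Ccnl1, Epha2, Errfi1, Irf2bpl, Tmem251, Plk2 and Hic2.

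The 5 windows printed here belong to members with the element whose values are given in the text, and the capitals mark TGACGTCA within the 250 bases, read 5′ to 3′ toward the gene. In the same order they lie at chr3:65958250-65958499 (minus strand), chr13:110394794-110395043 (plus), chr12:86884815-86885064 (minus), chr4:150854820-150855069 (plus) and chr2:32424067-32424316 (minus) of GRCm38.p6, from RefSeq.
Ccnl1: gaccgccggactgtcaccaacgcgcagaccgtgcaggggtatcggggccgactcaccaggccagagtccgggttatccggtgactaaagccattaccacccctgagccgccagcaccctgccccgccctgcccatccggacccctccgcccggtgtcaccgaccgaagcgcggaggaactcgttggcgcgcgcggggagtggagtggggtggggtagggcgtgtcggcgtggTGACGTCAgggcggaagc
Plk2: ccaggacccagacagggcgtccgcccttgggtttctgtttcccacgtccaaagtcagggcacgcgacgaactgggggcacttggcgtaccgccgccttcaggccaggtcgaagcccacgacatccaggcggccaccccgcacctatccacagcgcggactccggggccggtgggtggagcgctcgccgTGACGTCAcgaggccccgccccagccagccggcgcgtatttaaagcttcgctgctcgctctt
Irf2bpl: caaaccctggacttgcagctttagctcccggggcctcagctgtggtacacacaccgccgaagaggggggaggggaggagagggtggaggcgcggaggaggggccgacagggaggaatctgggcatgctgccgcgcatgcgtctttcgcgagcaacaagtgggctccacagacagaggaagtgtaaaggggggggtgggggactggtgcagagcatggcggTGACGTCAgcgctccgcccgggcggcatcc
Errfi1: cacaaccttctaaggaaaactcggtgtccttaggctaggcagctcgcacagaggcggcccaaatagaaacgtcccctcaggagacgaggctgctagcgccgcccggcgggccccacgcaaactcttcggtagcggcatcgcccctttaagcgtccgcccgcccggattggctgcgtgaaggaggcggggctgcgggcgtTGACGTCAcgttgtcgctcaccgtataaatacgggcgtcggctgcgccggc
Slc25a25: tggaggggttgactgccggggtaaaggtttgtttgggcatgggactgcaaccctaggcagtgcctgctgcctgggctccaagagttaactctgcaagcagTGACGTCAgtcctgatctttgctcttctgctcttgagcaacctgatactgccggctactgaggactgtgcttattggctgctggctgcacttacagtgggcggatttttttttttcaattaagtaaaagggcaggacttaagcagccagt
The first letter of the element lay 18 bases before the start in Ccnl1, 62 in Plk2, 30 in Irf2bpl, 51 in Errfi1 and 150 in Slc25a25.

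On date 1, which chose them, the members had a median log2 difference of 1.35 between dmPGE2 and vehicle, with means from 0.81 to 5.42. The 3 largest rises were those of Hey1, Id1 and Id3, transcription regulators with vehicle means of 0.490, 1.75 and 1.36 CPM. Hey1 (chr3:8663359-8667038 on mm10), a transcriptional repressor downstream of Notch and BMP signals, stood at 0.514, 0.337, 0.886 and 0.223 CPM in vehicle and at 35.6, 27.2, 54.4 and 51.8 CPM after dmPGE2. Id1 and Id3, inhibitors of basic helix-loop-helix factors and targets of BMP signals, had mean log2 differences of 4.78 ± 0.75 and 4.54 ± 0.39 (SD, n = 4). Hic1, a zinc finger repressor, had 3.74 ± 0.51, and Skil, a feedback inhibitor of TGF-beta signalling with a higher vehicle mean of 32.4 CPM, 3.15 ± 0.33. All 4 dmPGE2 libraries lay above all 4 vehicle libraries for each of these 5 genes, an order that choosing by these libraries favours.

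Secreted factors and surface proteins lay among these regulators in size on date 1. Cyr61, a secreted matrix-associated protein, had a mean log2 difference of 3.89 ± 0.49, and Vegfa, the vascular growth factor, one of 3.63 ± 0.51. Plaur, the urokinase receptor, had 3.18 ± 0.20, and P2ry10, a G-protein-coupled receptor, 3.0 ± 0.67. A pair of genes had no count in any vehicle library of date 1. Trh, the thyrotropin-releasing hormone precursor, reached 4.29, 2.76, 6.81 and 7.02 CPM after dmPGE2, and Ramp3, a partner of the calcitonin-like receptors, 4.91, 4.73, 4.87 and 4.38 CPM. Against a floor of 3 counts per library these levels were at least 30.5-fold and 27.6-fold higher. F3, the tissue factor that starts coagulation, was at 0, 0, 0.0591 and 0.112 CPM in vehicle and 4.63, 5.51, 4.98 and 4.62 CPM after dmPGE2. On a per-length scale (RPKM of date 1 means) Zfp36 was the most abundant member after dmPGE2 at 686, against 279.5 in vehicle, followed by Cebpb at 417 against 60.0.

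**Figure D1:**
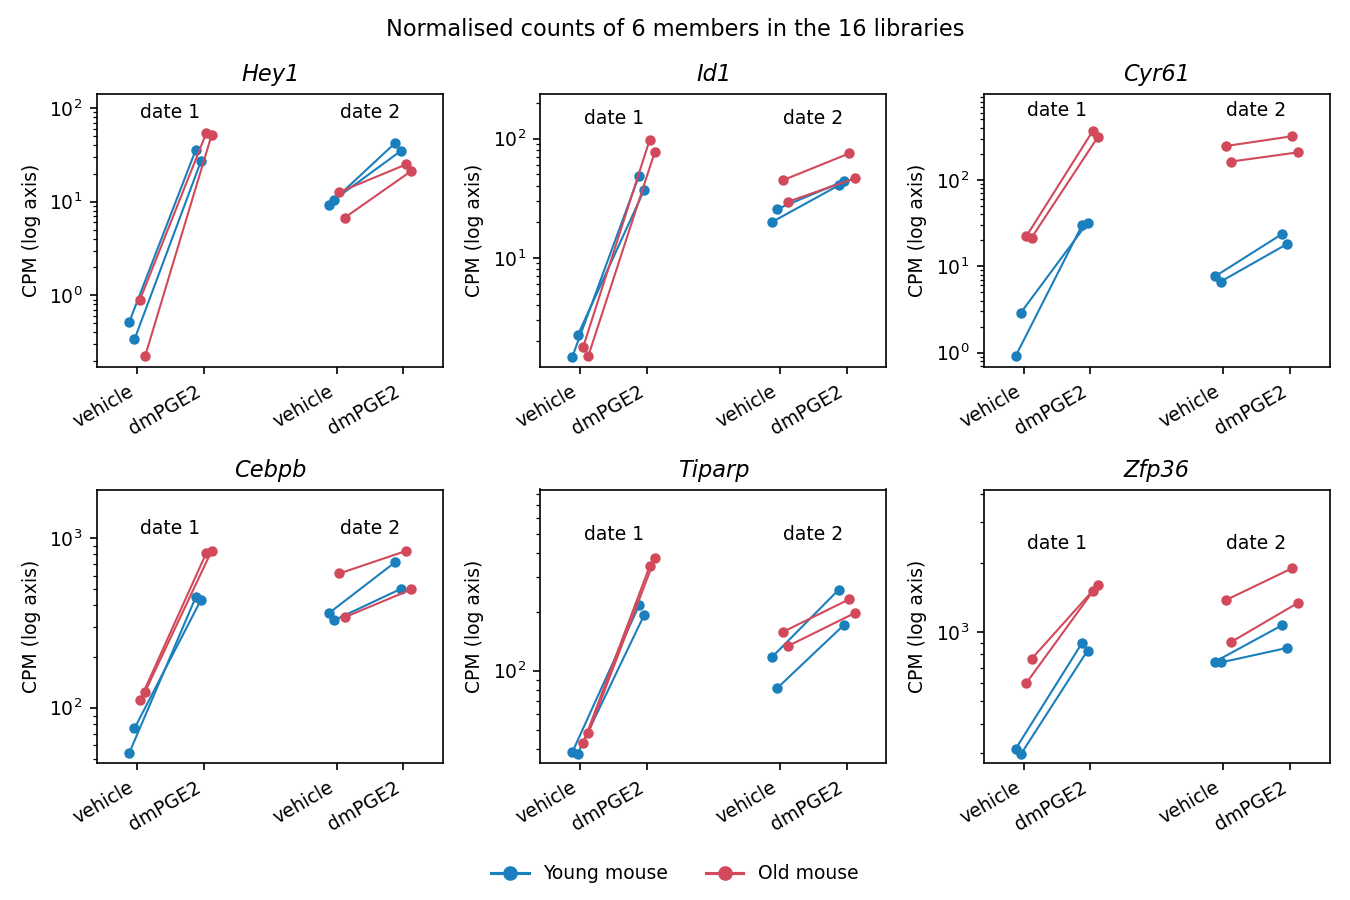
CPM (log axis) of 6 members in the vehicle and dmPGE2 libraries of both dates, 1 line per mouse, blue for young and red for old mice. Each line joins the libraries of 1 mouse, and the lines are steeper on date 1 than on date 2. Within each age the vehicle points start higher on date 2, although for Cyr61 and Zfp36 young mice of date 2 start below an old mouse of date 1.

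In the mice that had no part in the choice, 116 of the 133 members had a fitted value above 0, against 6926 of all 14101 genes tested. The rises were much smaller than on date 1. On date 2, 13 of the 133 members rose and 0 fell (edgeR quasi-likelihood test with mouse as a block, Benjamini-Hochberg adjusted p under 0.05 over 14101 genes), which is 9.77% against a background of 0.213% of all genes tested called higher and 0.0142% called lower. At an unadjusted p under 0.05, 58 members were higher and 3 lower, against 675 of all 14101 genes in either direction. DESeq2 and limma-voom called 29 and 19 members higher and 0 lower. The median fitted log2 change was 0.39 for the members and -0.0038 for all genes. All 133 members passed the filter on low counts. In log2(CPM + 0.5), 58 members (43.6%) were above 0 in all 4 mice of date 2, against a background of 5.43% of all genes, 42 were above 0 in 3 mice, 19 in 2, 11 in 1 and 3 in 0.

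The number of calls depended on single mice. Without mouse 486 edgeR called 0 members (56 higher and 1 lower at an unadjusted p under 0.05), without 483 it called 1, without 484 4 and without 485 10, and in a fit without the replicate block it called 0 (52 higher and 2 lower at an unadjusted p under 0.05). All 13 had the same direction in each of these fits.

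Members with the larger rises on date 1 tended to have the larger ones on date 2. Over the 133 members, the means of the dates had a Pearson correlation of 0.59 and a Spearman correlation of 0.54, given as a description since genes of the same libraries are not independent. In the 44 members with the smallest rise on date 1, the median log2 difference on date 2 was 0.20 and 1 member was called. It was 0.35 with 3 called in the middle 44, and 0.60 with 9 called in the top 45. Level also went with the calls: 11 of 55 members with a date 2 mean of at least 50 CPM were called, 2 of 48 between 10 and 50 CPM, and 0 of 30 below 10 CPM, although the median fitted log2 changes of these groups were 0.40, 0.34 and 0.44. Of the 30 below 10 CPM, 1 was higher and 1 lower at an unadjusted p under 0.05 with edgeR, and DESeq2 and limma-voom called 0.

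**Figure D2:**
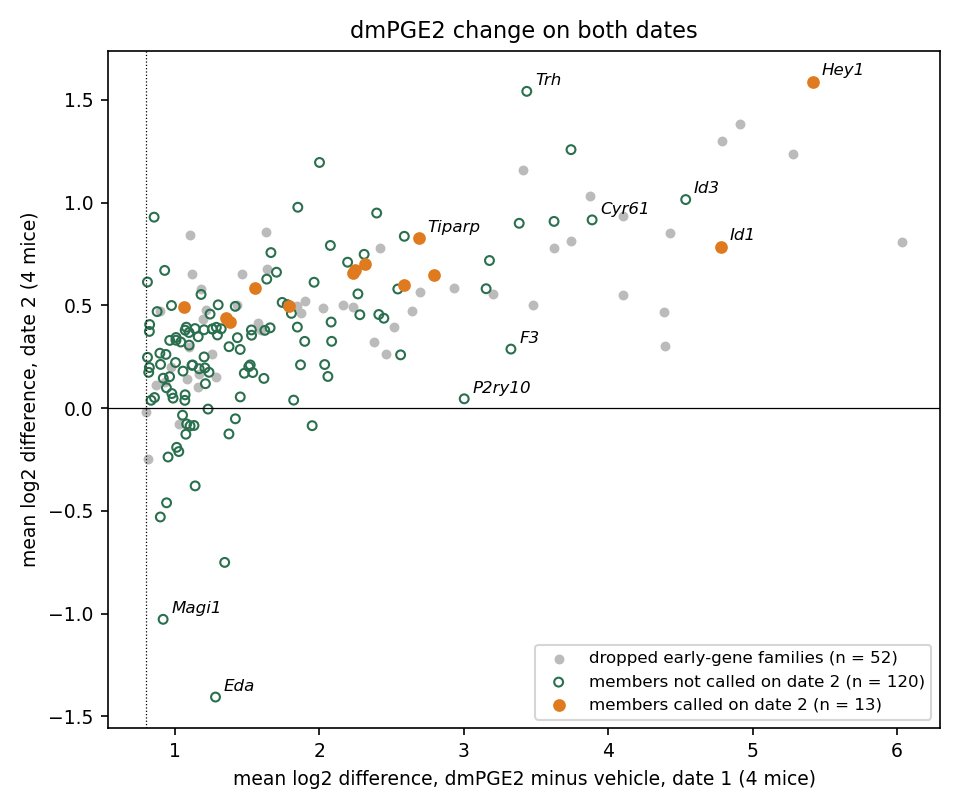
Mean log2(CPM + 0.5) difference between dmPGE2 and vehicle on date 1 (x axis, which chose the members) and on date 2 (y axis), 1 point per gene, with the 13 members called on date 2 filled in orange and the 52 genes of the families set aside in grey. The dotted line is the threshold of 0.8, and most points lie above 0 on the y axis at values far below those of the x axis.

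Among the 25 transcription regulators, 7 rose on date 2: Hey1, Id1, Cebpb, Csrnp1, Bhlhe40, Per1 and Atf4. Hey1 had the largest rise of the 13 called members. It stood at 9.26, 10.5, 12.7 and 6.75 CPM in vehicle and 42.6, 34.7, 25 and 21.3 CPM after dmPGE2, and the groups did not overlap. The fitted rise was 3.16-fold (log2 1.66 ± 0.22 SE, adjusted p = 0.0178). Id1 (chr2:152736251-152737410) went from 20.0, 25.7, 44.7 and 29.5 to 40.5, 44, 75.1 and 46.3 CPM, higher in each of the 4 mice, with the level of the old mouse 485 in vehicle above that of both young mice after dmPGE2. Its fitted rise was 1.76-fold (log2 0.82 ± 0.13, adjusted p = 0.0448). Its relative Id3 had a value of log2 1.05 ± 0.18 that did not pass (adjusted p = 0.0701).

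Cebpb (chr2:167688915-167690432), a leucine zipper factor of myeloid and emergency blood formation, stood at 359.9, 327, 617 and 341 CPM in vehicle and 720.2, 500.1, 837 and 497 CPM after dmPGE2 on date 2. Each mouse rose, although the vehicle level of mouse 485 exceeded the dmPGE2 levels of mice 484 and 486, and the fitted rise was 1.59-fold (log2 0.67 ± 0.08, adjusted p = 0.0124). Bhlhe40 (chr6:108660629-108666925), a repressor that acts in the circadian clock and in immune cells, went from 80.6, 77.8, 205 and 135 to 133, 138, 297 and 205 CPM (log2 0.69 ± 0.08, adjusted p = 0.00852). It overlaps the antisense member 0610040F04Rik, and with the strand used in counting not given, their reads may not be separated. Per1, a core repressor of the clock, rose from 78.2, 49.8, 81.8 and 59 to 126, 81.9, 122 and 76.2 CPM (log2 0.61 ± 0.09, adjusted p = 0.0458). Both clock genes were higher after dmPGE2 in all 4 mice.

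Csrnp1, a nuclear protein induced by AXIN1, stood at 129, 120.4, 264 and 188 CPM in vehicle and 228, 158, 412 and 276 CPM after dmPGE2, a 1.54-fold rise (log2 0.62 ± 0.08, adjusted p = 0.0133). Atf4, the effector of the integrated stress response, went from 229.9, 207, 259 and 212 to 304, 244, 378 and 298 CPM (log2 0.44 ± 0.07, adjusted p = 0.0458). Both were higher after dmPGE2 in all 4 mice. Mafk, a small Maf protein, just missed (log2 0.41 ± 0.07, adjusted p = 0.0688). Kdm6b, a histone H3 demethylase, had log2 0.42 ± 0.18 (adjusted p = 0.999). Hlx, a homeobox factor, went the other way with no call, lower in all 4 mice (log2 -0.45 ± 0.20, adjusted p = 0.999).

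**Figure D3:**
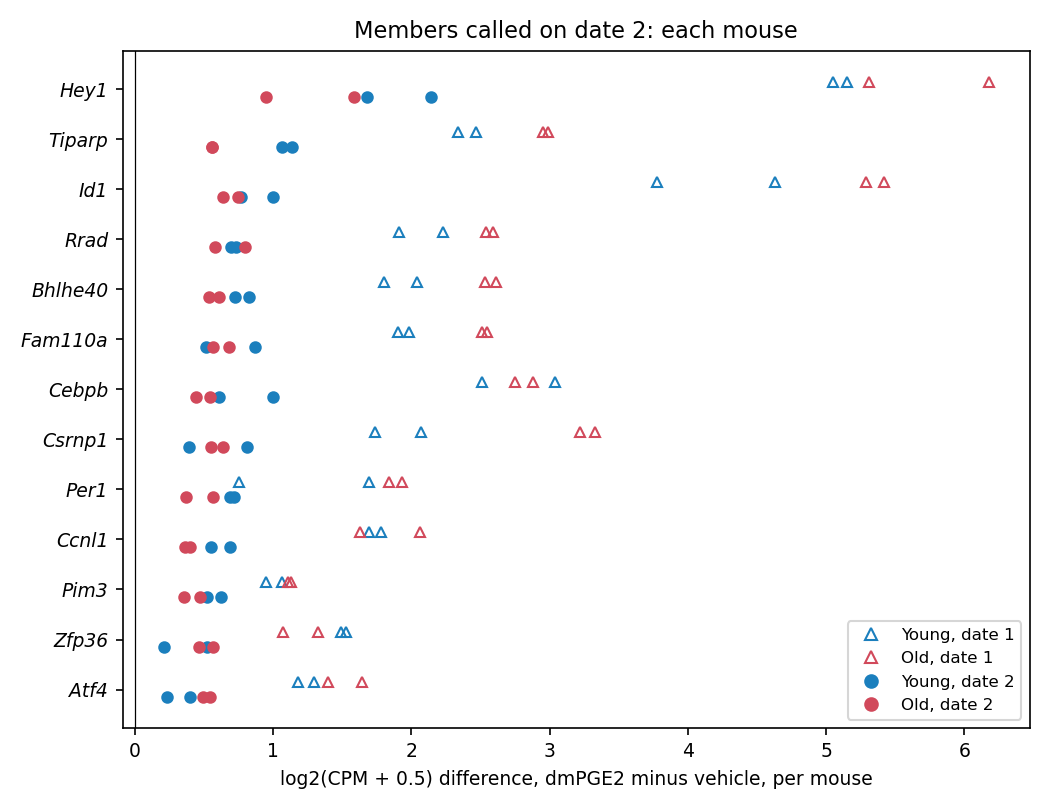
log2(CPM + 0.5) difference between dmPGE2 and vehicle for each mouse in the 13 members called on date 2, with triangles for date 1, filled circles for date 2, blue for young and red for old mice. All circles lie right of 0, and within each gene the triangles lie at higher values than the circles.

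Of the 27 signalling regulators and survival genes, 2 rose on date 2. Rrad (chr8:104628066-104631321), a small GTPase of the RGK family, stood at 49.9, 39.4, 111 and 86.8 CPM in vehicle and 80.9, 65.6, 165 and 151 CPM after dmPGE2. Its rise was the most even of the 13 called genes, with log2 differences of 0.70 ± 0.09 (SD, n = 4), although both old mice were higher in vehicle than both young mice after dmPGE2. The fitted change was 1.65-fold (log2 0.72 ± 0.09, adjusted p = 0.00926). Pim3, a serine/threonine kinase that promotes survival and growth, went from 117, 90.3, 136 and 111 to 181, 129.6, 189 and 142 CPM (log2 0.51 ± 0.08, adjusted p = 0.0383).

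Other genes of this group came close or stayed near 0. Smad7, an inhibitor of TGF-beta and BMP receptors, had log2 0.74 ± 0.12 (adjusted p = 0.0688), and Stk17b, an apoptosis-related kinase, 0.42 ± 0.07 (adjusted p = 0.0688). Nrarp, a feedback inhibitor of Notch signalling, had 0.60 ± 0.14 (adjusted p = 0.317) and Mcl1, an anti-apoptotic BCL2 relative, 0.23 ± 0.05 (adjusted p = 0.269). Errfi1, a feedback inhibitor of the EGF receptor with the printed promoter, stood at 6.35, 6.94, 13.7 and 6.82 CPM in vehicle and 9.95, 7.75, 21.7 and 9.46 CPM after dmPGE2 on date 2, higher in all 4 mice with no call (log2 0.51 ± 0.23, adjusted p = 0.999). Rasl11b, a RAS-like GTPase, had 0.27 ± 0.72 (adjusted p = 0.999). Arrdc3, an arrestin-like adaptor, had a mean log2 difference of 1.82 on date 1 and of 0.04 ± 0.44 on date 2. Spry1, an inhibitor of receptor tyrosine kinase signalling, and Magi1, a scaffold protein, were lower after dmPGE2 in all 4 mice of date 2 with no call (mean log2 differences -0.24 ± 0.12 and -1.03 ± 0.47).

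Of the 15 genes of RNA and protein handling, Tiparp, Zfp36 and Ccnl1 rose. Tiparp (chr3:65528447-65555518), a mono-ADP-ribosyltransferase, stood at 117, 81.6, 158 and 134 CPM in vehicle and 259, 171, 232 and 197 CPM after dmPGE2, a 1.80-fold rise (log2 0.85 ± 0.11, adjusted p = 0.0167). The levels of the arms did not overlap, and the young mice rose by more than the old ones. Tiparp too overlaps an antisense member, 4931440P22Rik. Zfp36 (chr7:28376784-28379228), tristetraprolin, which binds AU-rich mRNAs and speeds their decay, went from 746, 739, 1379 and 907 to 1071, 854, 1899 and 1339.6 CPM (log2 0.46 ± 0.06, adjusted p = 0.0174). Its relative Zfp36l1 had log2 0.33 ± 0.11 (adjusted p = 0.859).

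Ccnl1 (chr3:65946151-65958225), cyclin L1, a partner of splicing kinases whose promoter window is printed above, stood at 209, 142, 254 and 223 CPM in vehicle and 306, 229, 327 and 295 CPM after dmPGE2 (log2 0.52 ± 0.07, adjusted p = 0.0209). Each mouse rose while the arms overlapped. Srsf5, a splicing factor, had log2 0.20 ± 0.08 (adjusted p = 0.997), and Siah2, a ubiquitin ligase, 0.40 ± 0.10 (adjusted p = 0.348). Fam110a (chr2:151969396-151980219), a centrosomal protein, was the called member among the 23 genes outside these groups. It went from 142, 149, 235 and 163 to 259.8, 213, 349 and 262 CPM (log2 0.68 ± 0.07, adjusted p = 0.00852). Lzts3, a leucine zipper protein of the same set, was among the 4 members with the lowest values on date 2, at 7.60, 2.47, 3.57 and 4.48 CPM in vehicle and 4.56, 4.14, 0.131 and 3.61 CPM after dmPGE2 (log2 -0.86 ± 0.77, adjusted p = 0.999).

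None of the 12 secreted factors passed on date 2 with edgeR (4 higher and 1 lower at an unadjusted p under 0.05), while DESeq2 and limma-voom each called 1 higher. Their median log2 difference was nevertheless the largest of the groups on both dates (2.27 and 0.65). Vegfa stood at 54.9, 31.4, 53.9 and 38.6 CPM in vehicle and 123, 85.8, 67.4 and 64.2 CPM after dmPGE2 on date 2, higher in each mouse without overlap between the arms (log2 0.94 ± 0.17, adjusted p = 0.0839). Cyr61 was at 7.67, 6.64, 246 and 163 and 23.5, 18.1, 319 and 208 CPM (log2 0.86 ± 0.20, adjusted p = 0.333), with old mice far above young mice in both arms. Trh stood at 0.397, 0, 1.47 and 1.23 CPM in vehicle and at 3.13, 3.02, 3.07 and 1.90 CPM after dmPGE2 (log2 2.34 ± 1.12, adjusted p = 0.999).

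Hbegf, a ligand of the EGF receptor, and Il10, an anti-inflammatory cytokine, had log2 values of 0.47 ± 0.21 and 0.91 ± 0.77. Neither passed (adjusted p = 0.999 and 0.999). Eda, a TNF-family ligand, had the lowest date 2 value of all members, at 0.595, 4.48, 3.25 and 3.25 CPM in vehicle and 0.136, 5.06, 0.131 and 0.197 CPM after dmPGE2. These are low levels, and the difference did not pass (log2 -2.53 ± 1.04, adjusted p = 0.999).

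The 23 receptors, channels and other surface proteins had the smallest median on date 2 (0.21, against 1.48 on date 1). edgeR called 0 of them (4 higher and 0 lower at an unadjusted p under 0.05), DESeq2 2 higher and limma-voom 1 higher. Plaur came closest, with 73.2, 56.2, 70.5 and 50.7 CPM in vehicle and 143, 86, 88.7 and 100.1 CPM after dmPGE2 (log2 0.74 ± 0.12, adjusted p = 0.0613). Ccrl2, an atypical chemokine-binding receptor, had log2 0.44 ± 0.09 (adjusted p = 0.238), and S1pr1, the receptor for sphingosine-1-phosphate that guides exit into blood, 0.19 ± 0.09 (adjusted p = 0.999). P2ry10 was higher in 1 of 4 mice. The members included 4 Frizzled receptors of Wnt ligands. Their mean log2 differences on date 1 were 2.56 for Fzd4, 1.54 for Fzd9, 1.37 for Fzd8 and 0.90 for Fzd5, and on date 2 they were 0.26, 0.17, -0.13 and -0.53.

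Of the 8 genes of metabolism and oxygen response, 0 were called by edgeR (5 higher and 0 lower at an unadjusted p under 0.05), 1 by DESeq2 and 0 by limma-voom. Coq10b, a coenzyme Q-binding protein, stood at 29.4, 28.9, 54 and 38.5 and 88.1, 53, 72.5 and 54.5 CPM (log2 0.86 ± 0.18, adjusted p = 0.234). Slc25a25, a mitochondrial ATP-Mg/phosphate carrier with the printed promoter, had 0.53 ± 0.13 (adjusted p = 0.393), and Egln3, an oxygen-sensing prolyl hydroxylase, 0.40 ± 0.14 (adjusted p = 0.905). Both genes were higher on average after dmPGE2 on date 2 without passing the test.

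On date 2 the members had smaller differences, and most had higher vehicle levels, than on date 1. For 77 of the 133 members (57.9%), all 4 vehicle libraries of date 2 lay above all 4 of date 1, against a background of 6.09% of all genes. The vehicle libraries of date 1 entered the choice of members. Choosing by a large difference on that date favours genes with low vehicle values and large differences there. These values are therefore a description with no test. The median log2 ratio of the vehicle means, date 2 over date 1, was 0.92 for the members and -0.06 for all genes, and that of the dmPGE2 means was -0.24 and -0.03. For 114 members the vehicle mean of date 2 lay between the vehicle and dmPGE2 means of date 1, for 16 it lay at or above the dmPGE2 mean, and for 3 below the vehicle mean. Over all 14829 genes these counts were 1346, 7163 and 8550, and a gene lower after dmPGE2 on date 1 can be in both of the latter. The choice itself placed the dmPGE2 mean of date 1 above the vehicle mean for every member. Summed over the members, vehicle libraries held 3800 to 5732 CPM on date 1 and 7842 to 12302 CPM on date 2, and dmPGE2 libraries 10237 to 17528 and 9923 to 14830 CPM.

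Hey1 shows the pattern, with a vehicle mean of 0.490 ± 0.290 CPM on date 1 (SD, n = 4) and one of 9.80 ± 2.47 CPM on date 2. After dmPGE2 it averaged 42.2 ± 13 and 30.9 ± 9.64 CPM. The 16 members whose date 2 vehicle mean reached the date 1 dmPGE2 mean, looked up after their values were seen, were P2ry10, Trib1, Trp53inp2, Cd28, Plk3, Cd69, Pmaip1, Phlda1, Thbs1, Gpr65, Fn1, Tfrc, Rnd3, Kcnj2, Hlx and Lmna. Cd69, an early activation marker of leukocytes, averaged 11.5 ± 3.23 CPM in vehicle on date 1 and 153 ± 74.4 CPM on date 2, and Tfrc, the transferrin receptor and one of the erythroid markers, 13.9 ± 3.71 and 118 ± 72.1 CPM. The summed markers of neutrophils, myeloid progenitors, monocytes and T and NK cells stood higher on date 2 as well, as given above. Single markers that were lower on date 2 were Gfi1 (29.9 CPM on date 1 and 21.6 CPM on date 2), Csf3r (121 and 117 CPM) and Klrb1c (64.4 and 48.2 CPM). Erythroid genes such as Alas2 were higher (13.5 and 331 CPM), while Car2, the most abundant of them, was not (1798 and 1773 CPM). The part of these cell types in the levels of the members was not tested.

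**Figure D4:**
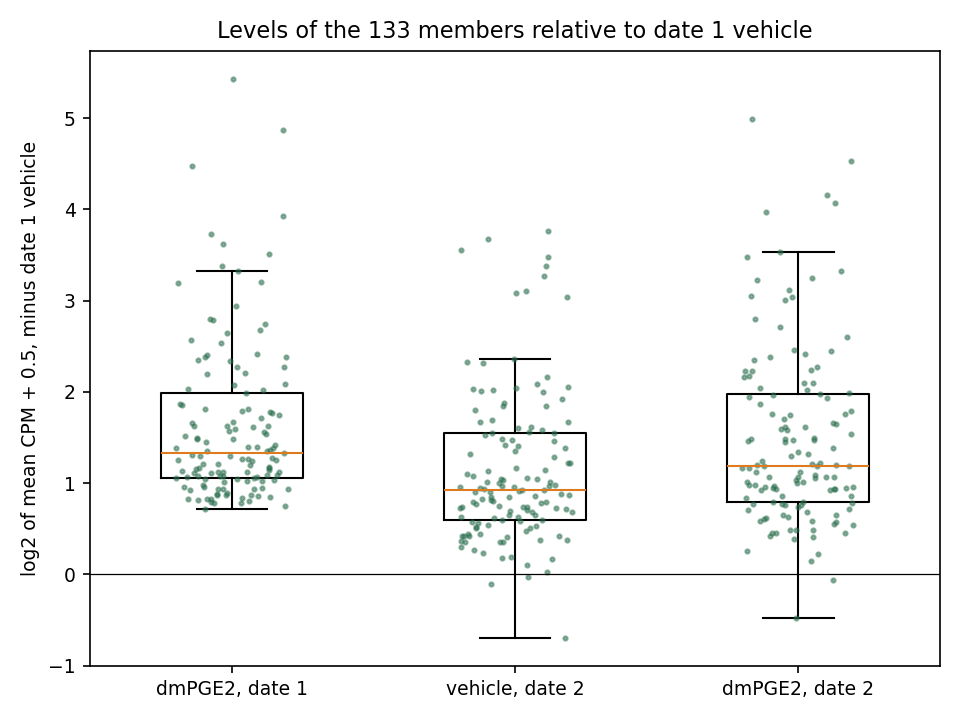
Level of each of the 133 members relative to the vehicle mean of date 1, as log2 of the mean CPM + 0.5 of 4 libraries, for dmPGE2 on date 1, vehicle on date 2 and dmPGE2 on date 2. Points are members, boxes give the quartiles with the median in orange, and whiskers reach the farthest point within 1.5 box lengths, so that the vehicle levels of date 2 are seen to lie above 0 for nearly all members.

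The choice of members did not compare the ages, but it used the date 1 vehicle libraries that are part of this test. Its mean CPM after dmPGE2 was taken over both ages, so a gene could pass through the old mice. The counts for age are therefore not free of the choice. In vehicle, 32 of 132 members tested were higher in old than in young mice and 1 was lower (edgeR with a term for date, 13705 genes tested), that is 24.2% against a background of 8.37% of all genes called higher in old and 7.95% called lower. Their median fitted log2 difference was 0.36, and 0.01 for all genes. The median rise of the 32 was 1.89-fold. The order of the mice within the called members comes from the libraries that gave the calls, so it is a description and no further support. No share over all genes is given for it. In 30 of the 33 called members both old mice lay above both young mice on each date. The exceptions were Csrnp1 and Cebpb, where the ages overlapped on a date, and Gpr65, the proton-sensing receptor that was lower in old mice (log2 -0.66 ± 0.19, adjusted p = 0.0376).

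Cyr61 (chr3:145646971-145649985) differed most between the ages. In vehicle it stood at 0.914, 2.92, 22.2 and 21.4 CPM on date 1 and 7.67, 6.64, 246 and 163 CPM on date 2, and both old mice lay far above both young mice on each date. The fitted difference was 19.9-fold (log2 4.32 ± 0.34, adjusted p = 5.55e-05). Rprml, a little-studied relative of the cell cycle regulator reprimo, had a difference of similar size at a far lower level, 0, 0, 0.473 and 0.948 and 0.463, 0.154, 5.03 and 3.44 CPM (log2 4.27 ± 0.87, adjusted p = 0.00724). After dmPGE2 on date 1 it stood at 2.45 and 2.03 CPM in young and 5.20 and 6.12 CPM in old mice. Only the old mice were above the CPM threshold of 3 that chose the members.

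Signalling regulators gave 9 of the 32 genes higher in old mice. Plk2, a polo-like kinase of stressed and differentiating cells, stood at 41.2, 27.6, 176 and 266 CPM on date 1 and 124, 107, 361 and 341 CPM on date 2 (log2 2.14 ± 0.25, adjusted p = 0.000655). Sgk1, a kinase regulated by glucocorticoids and serum, was at 15.3, 8.69, 38.2 and 41.4 and 56.9, 52.1, 167 and 109 CPM (log2 1.54 ± 0.19, adjusted p = 0.000521). The old and young mice did not overlap on either date for both kinases. Rrad (log2 1.06 ± 0.15), the RAS relative Rasd1 (1.84 ± 0.32), the kinase Dyrk3 (0.82 ± 0.11) and Nrarp (0.70 ± 0.12) were also higher. Rasd1 overlaps Med9 on the other strand.

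Transcription regulators gave another 9. Bhlhe40 stood at 20.1, 25.7, 61.4 and 64.6 CPM on date 1 and 80.6, 77.8, 205 and 135 CPM on date 2 in vehicle (log2 1.28 ± 0.15, adjusted p = 0.000348). Irf2bpl, a transcriptional co-regulator with a printed promoter, was at 22.9, 18.2, 88.8 and 100.2 and 49.4, 45.4, 125 and 79.6 CPM (log2 1.66 ± 0.23, adjusted p = 0.000836). Tsc22d1, a leucine zipper regulator, was at 366, 371, 670.3 and 607 and 582, 539, 1031 and 871 CPM (log2 0.79 ± 0.07, adjusted p = 7.86e-05). In all 3 the old mice lay above the young ones on each date. Id3 (2.02 ± 0.44), the homeobox genes Hoxa5 (0.94 ± 0.20) and Nkx2-3 (0.58 ± 0.08), and the zinc finger gene Zfp503 (1.96 ± 0.59) were higher as well, while Id1 (0.36 ± 0.26, adjusted p = 0.383) and Hey1 (0.13 ± 0.42, adjusted p = 0.872) did not pass.

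**Figure D5:**
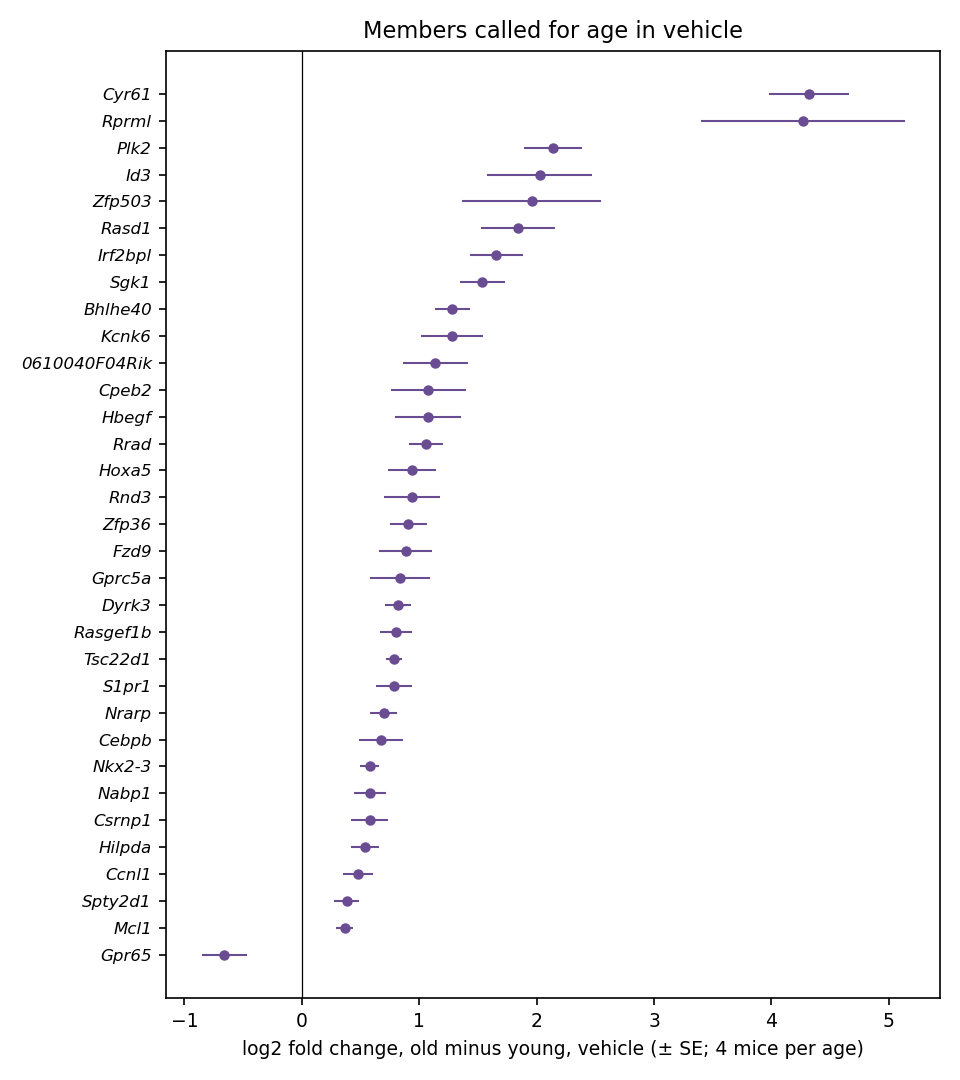
Fitted log2 fold change of old over young vehicle libraries (x axis, points, with SE as bars; 4 mice per age) for the 33 members called for age. All but Gpr65 lie above 0, and Cyr61 and Rprml lie above 4.

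Of the other 14 genes higher in old mice, 5 belonged to RNA and protein handling, 4 to surface proteins, 2 to secreted factors, 1 to metabolism and 2 to the genes outside these groups. Zfp36 (log2 0.91 ± 0.16, adjusted p = 0.00398), S1pr1 (0.78 ± 0.15, adjusted p = 0.00581), the potassium channel Kcnk6 (1.28 ± 0.26, adjusted p = 0.00753) and Hbegf (1.07 ± 0.28, adjusted p = 0.0248) were among them. Vegfa had log2 -0.12 ± 0.22 (adjusted p = 0.760) and Plaur 0.26 ± 0.20 (adjusted p = 0.408). Markers of megakaryocytes and platelets summed to 3634 to 3941 CPM in old and 2280 to 2289 CPM in young vehicle on date 1, and to 3071 to 3645 and 1536 to 1693 CPM on date 2, with 7 of 15 tested called higher in old mice. Stem cell identity markers summed to 7185 to 8071 CPM in old and 6368 to 6759 CPM in young vehicle on date 1, and to 6097 to 6303 and 4344 to 4574 CPM on date 2. Of these, 12 of 20 were called higher in old mice, with a median log2 difference of 0.39. Endothelial markers were called higher for 6 of 13, and of all genes tested 8.37% were. The part of the cell makeup in the age differences was not tested. Called both for age in vehicle and for dmPGE2 on date 2 were 6 members: Bhlhe40, Rrad, Cebpb, Csrnp1, Zfp36 and Ccnl1. With the vehicle libraries of date 1 alone, where the neutrophil markers summed to 4.52 to 7.07 CPM, edgeR called 20 members for age, and with those of date 2 alone 10. Without the term for date it called 4, and without mouse 485 it called 20.

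Whether the rise differed between ages was tested by the interaction on date 2, where edgeR called 0 of the 133 members and 0% of all 14101 genes. At an unadjusted p under 0.05 the dmPGE2 effect was smaller in old mice for 15 members and larger for 0 (672 of all genes in either direction). DESeq2 called 1 member, Cyr61, and limma-voom 0. The smallest p of a member belonged to Cyr61 (log2 old minus young -1.16 ± 0.18, adjusted p = 0.379), followed by Arrdc3 (-0.71 ± 0.15, adjusted p = 0.964) and Sgk1 (-0.68 ± 0.18, adjusted p = 1.00). Arrdc3 went from 269, 174, 238 and 238 to 314, 258, 185 and 196 CPM on date 2, up in both young mice and down in both old mice. On date 2 the mean difference was smaller in old than in young mice for 95 of 133 members (53.9% of all genes), with medians of 0.22 and 0.44, and on date 1 for 54 of 133 (56.5% of all genes), with medians of 1.35 and 1.33. The fit leaves 2 residual degrees of freedom, so only large differences could pass.

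Among wider lists of the same pathways, few other genes moved on date 2. Over all genes tested, edgeR called 0.213% higher on that date. Of 42 tested cyclic AMP-CREB target genes outside the families set aside, 4 rose and 0 fell (Cebpb, Id1, Per1 and Tiparp, all members; 8 higher and 2 lower at an unadjusted p under 0.05), with a median log2 change of 0.13 against -0.0038 for all genes. DESeq2 called 5 of them higher and limma-voom 4. Of 33 genes known to respond to dissociation and handling, 16 were members and 5 rose (Bhlhe40, Ccnl1, Cebpb, Csrnp1 and Zfp36), with a median of 0.25. That list was also higher in old vehicle for 15 of 33 genes, against 8.37% of all genes tested, with a median of 0.41. Of 40 genes of the unfolded protein response, Atf4 and the chaperone Hspa5 rose, with a median of 0.05. Of 43 NF-kB target genes edgeR called 0 (4 higher and 2 lower at an unadjusted p under 0.05; 1 higher by DESeq2, 0 by limma-voom), with a median of 0.05.

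The families set aside, which were chosen by the same conditions, had the larger values on date 2. Of those 52 genes, 15 rose (28.8%), against a background of 0.213% of all genes tested. Their median fitted log2 change was 0.51 against 0.39 in the members, and their date 1 median was also higher (1.89 against 1.35). In old vehicle, 27 of the 52 were higher (51.9%) and 1 lower, with a median of 0.89. Over all genes tested, 8.37% were called higher and 7.95% lower in old mice. The difference between the 2 sets of genes was not tested.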

How the data were processed

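Counts per gene were deposited by the authors as whole numbers for 16 libraries, with 14829 genes and 2504 empty lines. Per the submitters' processing notes STAR 2.5.2b, featureCounts, Subread 1.5.1 and build mm10 were used, while the strand setting and annotation were not given in the sources used here. Reads shared by overlapping genes are therefore of uncertain origin, and PCR copies could not be recognised, so limits from counts cover counting error only (3 counts, 0.156 to 0.231 CPM per library). The members and the gene lists were chosen with earlier results of these data known, and the functional groups were written after the members were seen.

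CPM used the library total and a pseudocount of 0.5. edgeR 4.0.16 in R 4.3.3 (robust quasi-likelihood, TMM, filterByExpr) tested dmPGE2 on date 2 with mouse as a block (3 residual degrees of freedom), the interaction in the same libraries (2) and age in the 8 vehicle libraries with a date term (5). The pairing is stated in the series design. Deviations from the arm means correlated at 0.317 to 0.409 within the mice of date 2. These means were taken over both ages, so the values cannot separate the pairing from age. A gene was called at an adjusted p under 0.05, and the SE is the size of the log2 fold change divided by the root of the F statistic. DESeq2 1.42.0 and limma-voom (limma 3.58.1) were alternatives, and the fits were tested on simulated counts.

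Genes were named by rule: every member called on date 2, the 12 largest rises on date 1, up to 8 called for age, the 3 on each side of the threshold, up to 4 of each list, the 4 lowest on date 2 and the 3 smallest interaction p. Others named were looked up after their values were seen. Sequences are from RefSeq.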

Additional observations from a re-analysis of the deposited data

Results flagged for a closer look

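In 4 of 96 sets of 4 mice (48 named members on 2 dates), 1 mouse stood apart from the other 3 by more than Dixon's 95% limit, where chance flags about 1 in 20. On date 2, the young mouse 483 had a log2 difference between dmPGE2 and vehicle of 0.92 for P2ry10, while the other 3 mice had -0.34 to -0.16, and of 0.58 for Nkx2-3, against 0.28 to 0.32. On date 1, the old mouse 480 had 3.45 for Il10, against 1.74 to 1.96, and 1.40 for Srsf5, against 1.16 to 1.19. The vehicle and dmPGE2 values of date 1 chose the members.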

How the results depend on the processing

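For dmPGE2 on date 2, the count of members called (13) was 29 with DESeq2, 0 without the replicate block, and 0 to 10 when 1 mouse was left out. Of the 13, DESeq2 and limma-voom called all 13, a fit of all 16 libraries with a term for each date called 10, and all 13 kept their direction in each alternative run. The count over all genes (32) was 79 with DESeq2, 47 with limma-voom, 0 without the replicate block, and 0 to 35 with 1 mouse left out (7 without 483, 15 without 484 and 0 without 486). For age in vehicle, the count of members called (33) was 4 with no term for date, 20 with date 1 alone, 10 with date 2 alone, and 20 to 38 with 1 mouse left out. Without the date term 32 of the 33 kept their direction. For the interaction on date 2, the count (0) was 1 with DESeq2. The causes of these shifts were not tested. The fits that leave some libraries out also rest on fewer libraries. The median log2 difference of the members on date 2 (0.36) ranged from 0.29 to 0.38 over the alternatives. The rule with a pseudocount of 2 gave 118 members, with TMM-scaled CPM 146 and with a mean of at least 1 108, and each of these sets held the 13 members called. With 4 mice per date, small changes of members with few counts could not be detected at this depth.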
